A study of Arabidopsis thaliana with 4 samples.

Results

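Phenylalanine ammonia-lyase (PAL) catalyses the first committed step of phenylpropanoid synthesis, and Arabidopsis thaliana carries 4 PAL genes, PAL1 (AT2G37040), PAL2 (AT3G53260), PAL3 (AT5G04230) and PAL4 (AT3G10340). Peaks of the transcription factor MYB67 were assigned to 3 of the 4, namely PAL1, PAL2 and PAL4, and none was assigned to PAL3. The members were taken by locus identifier from the authors' deposited table of peaks and genes, and 7 of the 5390 peaks belonged to them. PAL4 carried the strongest of these peaks, with a fold enrichment of 11.5, followed by PAL2 with 8.97 and PAL1 with 5.22. Each of these 3 genes had at least 1 further, weaker peak, so that PAL1 had 2 peaks, PAL2 3 and PAL4 2.

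The peaks come from DNA affinity purification sequencing (DAP-seq), in which a tagged transcription factor made in a cell-free extract captures fragments of bare genomic DNA. The MYB67 group consisted of 2 libraries prepared with a Halo-tagged MYB67 protein, and the empty-vector group of 2 libraries prepared with the Halo tag alone. In both groups the protein came from wheat germ extract and the DNA was sheared from Col-0 plants. The labels name root as the tissue, but their protocol describes DNA taken from leaf. Binding was measured in vitro, without chromatin and without any measure of gene expression. The deposited values form 1 peak list for the whole series. No value belongs to a single library, so the depth per library is unknown, no peak has a replicate error, and no test between MYB67 and empty-vector libraries could be made.

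PAL removes the amino group of phenylalanine and yields cinnamate, from which plants build lignin, flavonoids, sinapate esters and the aromatic part of suberin. PAL1, PAL2 and PAL4 encode active enzymes, with PAL1 and PAL2 linked to flavonoids as well as lignin and PAL4 mainly to lignin, while PAL3 encodes an enzyme of low activity. R2R3 MYB factors, the family of MYB67, are known regulators of such genes, often through promoter sequences rich in A and C that are called AC elements.

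The motif that the authors deposited for MYB67 is shown because every site counted at the PAL genes is a match to it. Which peaks it was derived from is not stated. Taking the most frequent base at each of its 10 positions, with capitals for the bases that reached at least 80% of the matrix, gave the following string.
MYB67 motif, most frequent bases: tccACCtAcc
From position 4 to position 10 the matrix favoured ACCTACC, whose base fractions multiply to 24.8%, then ACCTAAC with 21.5% and ACCAACC with 10.9%, if positions are taken as independent. These 3 strings are the letters of the AC elements described in phenylpropanoid promoters. The deposited list of motif sites, found with the scanner FIMO and kept up to a q (a p-value adjusted for the places scanned) of 0.05, gives a q-value for each site but neither its letters nor its place within the peak, so the strings present in each PAL peak are not given.

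PAL4 had the strongest PAL peak and the steepest difference between its peaks. The stronger peak lay on chromosome 3 at 3202733 to 3203065 (TAIR10, counted from 1), with its summit at 3202880, a width of 333 bp, a fold enrichment of 11.5 and a −log10 q of 48.9. Fold enrichment is the authors' ratio of signal at the summit to the background modelled by the peak caller, and a peak's q is the caller's adjusted p-value. By fold it ranked 90 of 5390, above 98.3% of the list, whose median was 4.38 (quartiles 3.74 and 5.57, highest 23.2). It held 4 motif sites, of q 0.00739, 0.0127, 0.0209 and 0.0405. Among the 505 peaks with 4 sites it ranked 14 by fold, and their median was 5.12, so its fold was high for its number of sites.

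The weaker PAL4 peak, at 3205622 to 3205874 of chromosome 3, had a fold of 3.93 and a −log10 q of 8.15. Its summit, at 3205749, lay 2869 bp from that of the stronger peak. It was below the median fold of the list, above 34.4% of peaks by fold and 48.4% by −log10 q. Its 3 sites had q-values of 0.0166, 0.0356 and 0.0476, none of them at or under 0.01. With 1.20 sites per 100 bp in the stronger peak and 1.19 in the weaker one, the PAL4 peaks were nearly equal in site density while their folds differed 2.91 times.

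PAL2 had the most peaks, the widest peak and the most motif sites of the family. Its strongest peak lay on chromosome 3 at 19746558 to 19747516, with a fold of 8.97 and a −log10 q of 36.1, which placed it at rank 276 of 5390 by fold, above 94.9% of the list. At 959 bp it was the second widest peak of the whole list, rank 2 against a median width of 257 bp and a highest width of 1063 bp. The summit, at 19746773, stood 215 bp from one end of this stretch, so the peak extended mostly to one side of it. It held 13 sites, rank 5 of the list, against a median of 2 per peak.

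Both the count and the density of sites at this PAL2 peak were above the median of the list. Per 100 bp it had 1.36 sites, against a median of 0.823 over all peaks, which is above 87.1% of peaks, whereas the plain count is above 99.9%. Of the 13 sites 3 had a q of at most 0.01, namely 0.00739, 0.00904 and 0.00980, and the other 10 ran from 0.0227 to 0.0485. Among the 12 peaks of the list with at least 10 sites it ranked 10 by fold, below their median of 11.6.

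The second PAL2 peak, at 19748322 to 19748639, had a fold of 5.51 and a −log10 q of 13.7, above 74.2% of the list by fold. Its summit, at 19748483, lay 1710 bp from the strongest one, and its sites were 2, of q 0.0107 and 0.0360. The third, at 19748812 to 19749018, had a fold of 3.37 and a −log10 q of 3.83, the lowest of the 7 PAL peaks on both measures. It stood above 13.7% of the list by fold and 8.92% by −log10 q. Its summit, at 19748943, lay 2170 bp from the strongest one, and its sites were also 2, of q 0.00897 and 0.0361. The weakest PAL2 peak thus held a site of lower q than any in the second peak, whose fold was higher.

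Of the 3 PAL genes with assigned peaks, PAL1 had the weakest top peak, although it held many sites. That peak lay on chromosome 2 at 15560264 to 15560750, with its summit at 15560422, a width of 487 bp, a fold of 5.22 and a −log10 q of 17.0. It was above 69.5% of the list by fold and 82.5% by −log10 q, so the 2 measures of strength gave it different standings. Its 7 sites gave it rank 31 of the list, and 1.44 sites per 100 bp was the highest density of the PAL peaks, above 90.1% of the list. Among the 35 peaks with 7 sites it ranked 27 by fold, against their median of 6.94, so its fold was low for its number of sites.

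The sites of this PAL1 peak included the lowest q at any PAL gene, 0.00725, and a second of 0.00739, with the other 5 between 0.0280 and 0.0472. The weaker PAL1 peak, at 15557017 to 15557228, had a fold of 3.68, a −log10 q of 4.74 and 1 site of q 0.0128. Its summit, at 15557114, lay 3308 bp from that of the stronger peak, the widest spacing in the family. It stood above 23.9% of the list by fold and 16.4% by −log10 q.

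**Figure D1:**
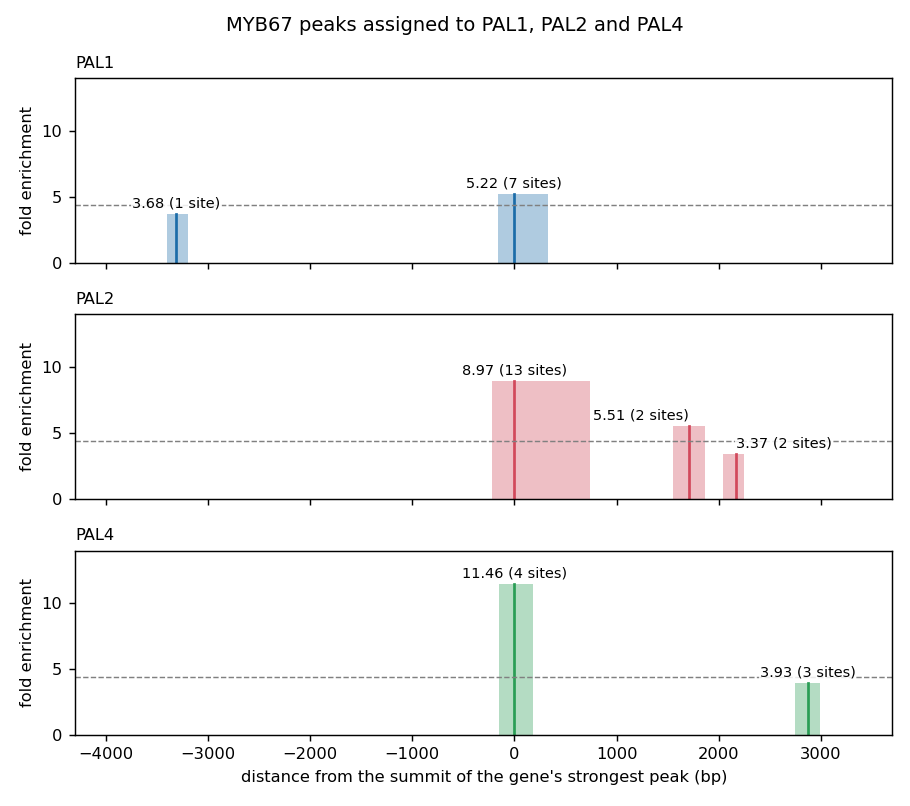
Fold enrichment (vertical axis, ratio) of each peak assigned to PAL1, PAL2 and PAL4 against distance in bp from the summit of the gene's strongest peak, in chromosome direction. Shaded blocks span the width of each peak, solid lines mark summits, labels give fold and motif sites, and the dashed line is the median of all peaks, 4.38; each gene has 1 tallest peak, of 11.5 in PAL4, 8.97 in PAL2 and 5.22 in PAL1, and lower peaks 1710 to 3308 bp away.

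Across the 7 PAL peaks fold ran from 3.37 to 11.5 with a median of 5.22, against 4.38 over the list. A total of 4 peaks lay above the list's median and 2 of them, the top peaks of PAL4 and PAL2, above its upper quartile. The other 3, the weakest of each gene, lay below the median. The plot of fold against −log10 q shows the 7 peaks on both measures, which gave some of them different standings: the stronger PAL1 peak stood above 69.5% of the list by fold and 82.5% by −log10 q.

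**Figure D2:**
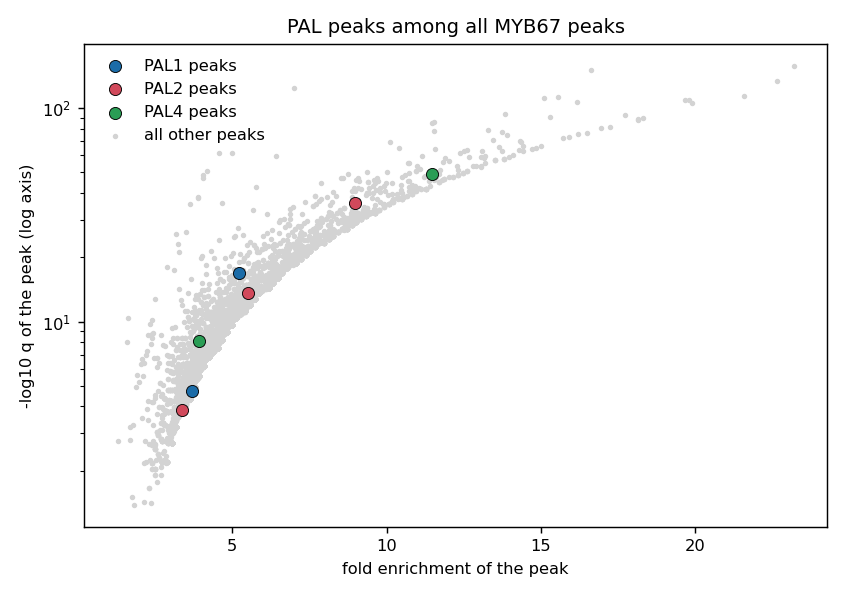
Fold enrichment (horizontal axis, ratio) against −log10 q (vertical axis, log scale) for the 7 PAL peaks (coloured) and all other MYB67 peaks (grey). PAL4 and PAL2 each have 1 peak in the upper range, at 11.5 and 8.97, and the weakest peak of each gene sits at 3.37 to 3.93.

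Sites and fold did not follow the same order within the family. Ordered by fold, the top peaks were those of PAL4, PAL2 and PAL1, with 4, 13 and 7 sites in turn. Within each gene the strongest peak held the most sites, 7 against 1 in PAL1, 13 against 2 and 2 in PAL2, and 4 against 3 in PAL4. In all, the PAL peaks held 32 sites in 2769 bp, or 1.16 per 100 bp, against 0.841 per 100 bp over all peaks. Of the 32 sites 13 lay in the wide PAL2 peak. The weaker PAL1 peak, with 0.472 sites per 100 bp, and the second PAL2 peak, with 0.629, lay below the list's median of 0.823. The other PAL peaks lay above it.

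**Figure D3:**
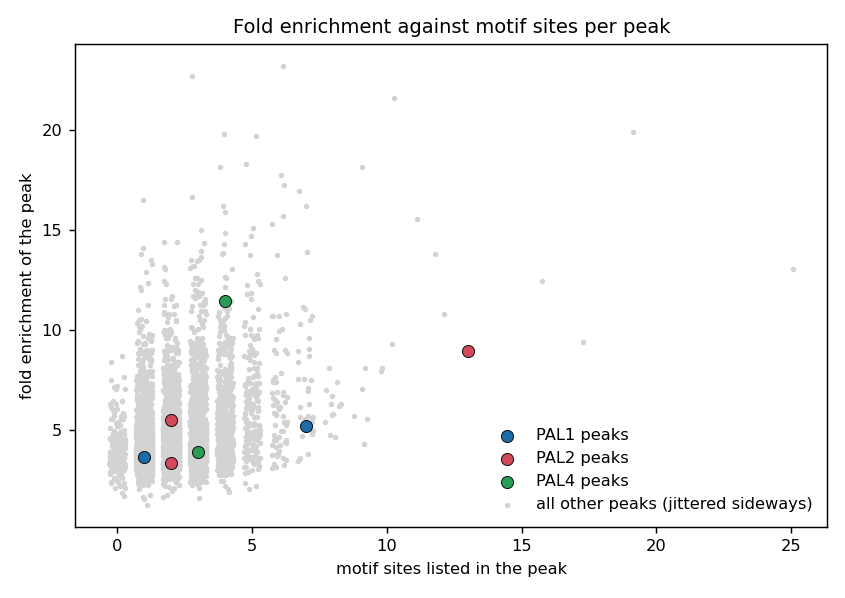
Fold enrichment (vertical axis, ratio) against the number of motif sites listed in a peak (horizontal axis) for the 7 PAL peaks (coloured) and all other peaks (grey, spread sideways for visibility). The PAL4 top peak stands high among peaks with 4 sites, whereas the PAL1 peak with 7 sites stands low at 5.22.

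PAL sites of low q were about as frequent as in the list as a whole. A q of at most 0.01 was reached by 7 of the 32 PAL sites (21.9%), against 23.7% of all 12446 sites, and 4 of the 7 PAL peaks held such a site, against 47.3% of all peaks. These 7 sites were 4 in PAL2, 2 in PAL1 and 1 in PAL4. The lowest q in the whole list was 0.00443, at 23 sites, and no PAL site had it. The strongest peaks of PAL1, PAL2 and PAL4 each held a site of q 0.00739, a value shared by 359 sites in 350 peaks, and 8.45% of all sites had a lower one.

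**Figure D4:**
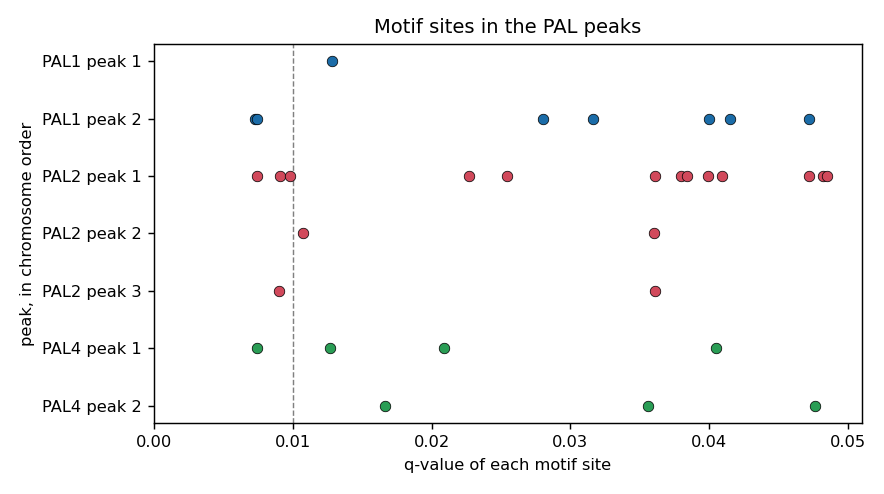
The q-value (horizontal axis) of each motif site in the 7 PAL peaks, with peaks of a gene numbered in chromosome order down the page and the dashed line at 0.01. Each gene's strongest peak (PAL1 peak 2, PAL2 peak 1, PAL4 peak 1) has its lowest site at 0.00725 or 0.00739, and PAL2 peak 1 carries 13 of the 32 sites.

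Several peaks at 1 gene were rare in the list as a whole. A peak was assigned to 3 of 4 PAL genes, where 14.7% of 27444 nuclear protein-coding genes had one. The same 3 PAL genes had at least 2 peaks, where 1.33% of genes did, and PAL2 had 3, where 0.12% of genes had 3 or more. Among the 4030 genes with a peak, 365 had at least 2. All 3 PAL genes kept a peak among those with a −log10 q of at least 10 (6.07% of genes), those in the upper 50% by fold (7.55%) and those with a site of q up to 0.01 (7.63%). The weaker peaks of PAL1 and PAL4 met none of these choices, and PAL2 kept 2 of its 3 peaks under each. With 4 genes, chosen with the results known, these counts are descriptions and no test was made.

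Among the 365 genes with at least 2 peaks, the PAL genes differed from each other in how their peaks were arranged. The 332 genes with exactly 2 peaks had summits a median of 1526 bp apart (quartiles 794 and 2680 bp), so the peaks of PAL1 (3308 bp, rank 50) and PAL4 (2869 bp, rank 72) were spaced more widely than most. The first-to-second fold ratio of PAL4, 2.91, ranked 5 of 332, where the median was 1.35. That of PAL1, 1.42, ranked 150, close to the middle.

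Among the 30 genes with exactly 3 peaks, PAL2 had the most sites, 17 against a median of 7, and it ranked 2 of all 365 genes with several peaks. Its strongest fold ranked 7 of the 30 and its second fold, 5.51, ranked 9. The summits of its peaks spanned 2170 bp, below the median of 2715.5 bp and rank 25 of 30. Among these 30 genes PAL2 was therefore compact and rich in sites. Among all 365 its span ranked 137, above their median of 1646 bp. The first-to-second fold ratio of PAL2, 1.63, ranked 9 of the 30, where the median was 1.37. The ratio of strongest to weakest fold was 2.66 in PAL2 and 2.91 in PAL4.

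No peak was assigned to PAL3, on chromosome 5. In the order of genes in a RefSeq table, the nearest genes with a peak were its direct neighbour ELF6 (AT5G04240), which encodes a histone demethylase, and, with 6 genes in between on the other side, AT5G04160. The ELF6 peak, at 1170969 to 1171292, had a fold of 5.03 and 4 sites, and the AT5G04160 peak, at 1143504 to 1143741, had a fold of 5.87 and 2 sites. No peak at all, with or without an assigned gene, lay in the 27227 bp between them. A stretch of this length is common in these data: the median distance between adjacent nuclear peaks was 14056 bp, and 28.3% of such distances were longer. The missing PAL3 peak is thus a statement about this list and its threshold, not about the sequence of PAL3, which was not examined.

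The genes beside the PAL genes had peaks about as often as genes in general. Of the 16 genes that are the 2 nearest on each side of the 4 PAL genes, 2 had an assigned peak, where 14.7% of all genes did; these were ELF6 and AT2G37030, a SAUR gene near PAL1 with a fold of 4.08 and 1 site. None of the 8 such neighbours of PAL2 and PAL4 had one, a count that says little at that share. The distance to the next gene with a peak differed between the PAL genes. Around PAL1 only 1 gene on one side and 4 on the other lay before it, in a stretch of 33746 bp. Around PAL2 the numbers were 17 and 8, and around PAL4 4 and 16. The 3 PAL2 peaks and the 2 PAL4 peaks were the only peaks in their stretches, of 86633 and 76966 bp. Such stretches have PAL peaks inside and are not comparable with the distances between adjacent peaks. They were not computed for other genes, so how common they are is not known.

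Arogenate dehydratases (ADT) make the phenylalanine that PAL consumes. Of the 6 ADT genes 5 had a peak, against 14.7% of all genes, each with a lower fold than PAL4 and PAL2. The folds were 6.47 at ADT6 (AT1G08250), 5.87 at ADT4 (AT3G44720), 5.33 at ADT5 (AT5G22630), 5.11 at ADT3 (AT2G27820) and 4.19 at ADT1 (AT1G11790), and ADT2 had no peak. Their median was 5.33, against 8.97 for the 3 PAL genes with a peak and 4.47 for all genes with a peak. Of the PAL values, only that of PAL1, 5.22, fell within the range of the ADT genes. ADT5 alone had 2 peaks, whereas each PAL gene with a peak had at least 2. Of the 4030 nuclear genes with a peak, 365 had at least 2.

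Of the 15 genes listed for phenylpropanoid steps after PAL, 10 had a peak, against 14.7% of all genes. These 10 had a median fold of 6.74 and a range from 3.41 to 18.2. PAL4 ranked 67 and PAL2 207 among the 4030 nuclear genes with a peak, ordered by their strongest fold, and PAL1 ranked 1288. C4H, which hydroxylates the cinnamate that PAL makes, ranked 7 with a fold of 18.2 and 9 sites in a single peak. 4CL1, a ligase that activates the product of C4H, ranked 50 with a fold of 12.3 and 5 sites, close to PAL4. CYP98A3, a hydroxylase of the shikimate ester, had a fold of 9.74. It was the only 1 of these 10 genes with 2 peaks, where 365 of the 4030 genes had at least 2.

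Further genes of the list were spread on both sides of PAL1. CSE, an esterase that releases caffeate, had a fold of 15.6. The ligase gene 4CL5 had 7.68 and the acyltransferase gene HCT 5.80, whereas the reductase gene CCR1 had 4.73, the dehydrogenase gene CAD4 4.23, the methyltransferase gene COMT1 3.87 and 4CL3, a ligase of flavonoid synthesis, 3.41. No peak was assigned to 4CL2, CCoAOMT1, CCR2, CYP84A1 or CAD5. Kelch F-box proteins mark PAL for degradation, and none of their 4 genes had a peak, namely KFB01 (AT1G15670), KFB20 (AT1G80440), KFB50 (AT3G59940) and AT2G44130. With 4 genes and a share of 14.7% in all genes, a count of 0 says little.

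**Figure D5:**
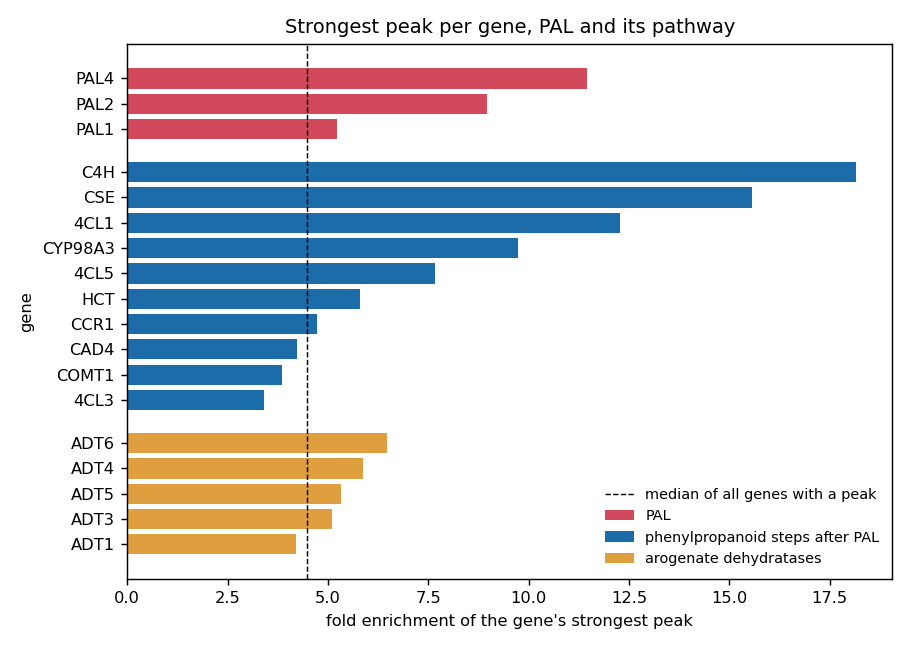
Fold enrichment (horizontal axis, ratio) of the strongest peak of each gene with a peak, for PAL, the steps after PAL and the arogenate dehydratases that supply phenylalanine; the dashed line is the median of all genes with a peak, 4.47. PAL4 and PAL2 exceed every arogenate dehydratase, whose highest value is 6.47, and C4H, CSE and 4CL1 exceed PAL4.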

How the data were processed

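The deposited files describe 1 set of MYB67 peaks. The submitters' processing notes name the build TAIR10 and the tools MACS3 3.0.0a7, HOMER, STAR 2.7.10a, bedtools, Trimmomatic 0.39, Picard 2.27.1 and FastQC. Their roles and settings, the joining of libraries and of peaks to genes, and the use of the empty-vector libraries are not given in the sources used here. The authors' deposited peak list gives a score, a fold (a ratio), a −log10 p and q and a summit per peak, and their gene table the fold and the q-value. The deposited site list gives FIMO q-values up to 0.05 with the coordinates of the whole peak, and the deposited motif the fraction of each base per position.

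Peaks were joined to sites by coordinates, and ranks and shares computed, with Python 3.11.15, numpy 2.4.6 and pandas 2.3.3. The counting was tested on simulated data. A RefSeq table of TAIR10.1 gave names and gene order only, since its assembly name differs from TAIR10. Peaks were therefore not placed in promoters, exons, introns or untranslated regions. Each gene was ranked by the highest fold among its peaks. The named genes were the PAL genes, the listed genes of the pathway with a peak and the 2 neighbours on each side. Members of the lists without a peak, and the next genes with a peak beside each PAL gene, are named as well. The PAL genes and the lists were chosen with earlier results of these data known. A fold depends on the background estimate as well as on binding, and a wider peak has more room for sites. No test was made, because no value belongs to 1 library.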

Additional observations from a re-analysis of the deposited data

How the results depend on the processing

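The 3 PAL genes kept a peak under every stricter choice of peaks, though PAL1 and PAL4 kept only their stronger one. The genes after PAL with a peak numbered 10, against 7 at a −log10 q of at least 10 and 8 with a site of q up to 0.01. The median standing of the 7 PAL peaks, above 69.5% of the list by fold, was 75.6% by −log10 q and also by the peak caller's score, which is made from it; it was 69.3% among nuclear peaks and 70.1% among peaks with an assigned gene. Counting sites of q up to 0.01 left 7 of the 32 PAL sites, counting repeated entries once left 32, and per 100 bp of peak the value was 1.16. Counting any peak within a set distance of a PAL gene was not run, because gene positions of the same build were not used here. No paired analysis was possible because no deposited value belongs to a single library. The depth of the libraries is unknown, so the absence of a peak, as at PAL3, has no stated limit of detection.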

Other observations

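One more peak near PAL1 has no assigned gene. It lies on chromosome 2 at 15564222 to 15564744, with its summit 4138 bp from that of the stronger PAL1 peak, a fold of 3.995 and 6 sites. It is the only peak other than those of PAL1 between the peaks of AT2G37030 and of IRX9 (AT2G37090), a gene of xylan synthesis with a fold of 9.77. It was not counted with PAL1.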
